A study of Mus musculus with 9 samples.

Results

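The genes described here build and steer the cytoskeleton of young neurons. They are 46 genes picked by symbol: 7 tubulins, 3 members of the doublecortin family, 9 microtubule-associated proteins and tubulin cofactors, 4 stathmins, 4 neurofilament genes, 8 growth cone and collapsin response proteins, 4 kinesins, 4 genes of migration signalling (the kinase Cdk5, its activator Cdk5r1 and the GTPases Rnd2 and Rnd3), and 3 actin regulators. All 46 symbols were found among the 53379 gene IDs of the deposited count table, and all 46 passed the filter on low counts. Nefh passed it only through the control libraries. RNA was measured by polyA-selected sequencing in GFP+ cells that were sorted from the cortex of C57BL/6 mouse embryos 48 hours after in utero electroporation, a way of bringing DNA into the cells that line the ventricle. Electroporation was done at E13.5 and the cortex was taken at E15.5 (E, embryonic day). The circSlc45a4 knockdown received a mix of 3 short hairpin RNAs (shRNAs) against circSlc45a4, a circular RNA of the Slc45a4 gene. The Slc45a4 mRNA knockdown received 2 shRNAs against the linear mRNA of the same gene, and the controls received 1 scrambled sequence (scramble). Each group held 3 libraries, which the design text calls biological replicates. The labels name neither the promoter that drives the shRNAs nor how many embryos were pooled. Circular RNAs have no polyA tail, and counts per gene do not separate their reads from those of the linear RNA.

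Newborn cortical neurons leave the ventricular zone, become multipolar, turn bipolar and climb along radial glia to the cortical plate. Tubulin dimers assemble into microtubules, which doublecortin and other microtubule-associated proteins bind and stabilise, stathmins keep from assembling, and kinesins use as tracks. Neurofilaments are the intermediate filaments of axons and accumulate as neurons mature. Collapsin response proteins carry guidance signals to the growth cone, and Cdk5 and actin regulators set the shape changes of migration. Mutations in several of these genes in humans cause cortical malformations in which neurons stop in the wrong place.

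Total counts per library were 36883510 to 45469298 after circSlc45a4 knockdown, 35307378 to 37051161 after Slc45a4 mRNA knockdown and 21073174 to 31833779 in scramble. Every scramble library thus had fewer counts than every knockdown library, and depth and knockdown cannot be told apart against scramble. The 46 genes took 3.745 to 3.782% of the counts after circSlc45a4 knockdown, 2.922 to 3.625% after Slc45a4 mRNA knockdown and 3.861 to 4.146% in scramble. Levels are given as CPM, the reads of a gene set against the scaled depth of the library. Slc45a4, the targeted gene, stood at 25.4, 25.3 and 24.7 CPM after circSlc45a4 knockdown and at 13.3, 18.5 and 17.4 CPM after Slc45a4 mRNA knockdown, against 31.4, 33.6 and 33.96 CPM under scramble. Its log2 fold change was -1.01 ± 0.12 after Slc45a4 mRNA knockdown (adjusted p = 0.000108) and -0.39 ± 0.12 after circSlc45a4 knockdown (adjusted p = 0.0245). The second call was lost without any 1 circSlc45a4 knockdown library and without scramble replicate 2 or 3 (log2 fold change -0.40 to -0.37, adjusted p = 0.0659 to 0.0866). Here and below, adjusted p is the Benjamini-Hochberg value over all 17760 genes tested with edgeR's quasi-likelihood F test, the error of a fold change is its standard error, and a gene is called at an adjusted p under 0.05. Libraries also differed in the sex of their embryos, as read from Xist. Xist, the RNA that coats the inactive X chromosome of female cells, stood at 635, 264 and 428 CPM after circSlc45a4 knockdown and at 1550, 637 and 0.194 CPM after Slc45a4 mRNA knockdown, against 0.239, 0.0648 and 0.0617 CPM under scramble. For the circSlc45a4 knockdown against scramble, sex and knockdown therefore cannot be told apart, while replicate 3 of the Slc45a4 mRNA knockdown was as low in Xist as scramble. The calls were also computed with the log2 level of Xist as a covariate, and the values of that fit are given where it ended a call. Within groups, Xist varied most through replicate 3 of the Slc45a4 mRNA knockdown, at 0.194 CPM against 1550 and 637 in its sisters. The slope of the covariate therefore rests mainly on that library, and the fit does not remove sex from the comparisons with scramble. The covariate fit ended 29 calls of the 46 genes. All 29 fold changes kept their sign, 24 kept at least 75% of their size and 3 were at least as large, with a median of 87.3% (48.4 to 144.5%) of the value without the covariate. The standard errors were 108 to 182% of those without it. The Xist covariate also ended the call of Slc45a4 after circSlc45a4 knockdown (log2 fold change -0.22, adjusted p = 0.595). A test for a minimum change of 1.2-fold was a further alternative and ended 29 calls of the 46 genes as well. Calls lost in that test are not listed gene by gene here or below.

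Marker genes of some other cell types moved with the groups. Apical progenitor markers summed to 1881 to 2043 CPM after circSlc45a4 knockdown and 1203 to 1506 CPM after Slc45a4 mRNA knockdown, against 1088 to 1431 CPM under scramble, and 9 and 4 of 13 rose in the 2 knockdowns with none falling (69.2% and 30.8%, against 14.1% and 8.92% of all genes). Basal progenitor markers summed to 1295 to 1561, 1677 to 1791 and 1728 to 1890 CPM in the groups in the same order, and 4 and 2 of 8 fell with none rising (50% and 25%, against 13.0% and 9.09% of all genes). The 17 markers of newborn projection neurons that are not among the 46 genes summed to 9187 to 9629, 8398 to 9409 and 9274 to 10580 CPM in the same groups. Of these markers, 2 rose and 4 fell after circSlc45a4 knockdown (11.8% and 23.5%, against 14.1% and 13.0% of all genes), and 1 rose and 1 fell after Slc45a4 mRNA knockdown (5.9% and 5.9%, against 8.92% and 9.09%). Cajal-Retzius markers summed to 78.2 to 255 CPM after circSlc45a4 knockdown and 22.9 to 33.9 CPM after Slc45a4 mRNA knockdown, against 34.5 to 74.1 CPM under scramble. Reln made up most of this sum after circSlc45a4 knockdown. Of the 6 markers of this list that were tested, Reln rose and Ebf3 fell after circSlc45a4 knockdown (16.7% each, against 14.1% and 13.0% of all genes). The fold changes of 3 markers were above 0 and of 3 below, with log2 values from -2.15 to 2.15. Markers of inhibitory neurons, vessel cells, microglia, meningeal fibroblasts and erythroid cells summed to at most 22.3 CPM for any list in any library, and Dlx6os1 was at 0 in all 9. After circSlc45a4 knockdown 3 of 8 inhibitory neuron markers tested fell and none rose (37.5% and 0%, against 13.0% and 14.1% of all genes). Of the microglia markers 1 of 6 rose (16.7%), and of the vessel markers 1 of 4 (25%), with none falling. After Slc45a4 mRNA knockdown 1 of 8 inhibitory neuron markers rose (12.5%, against 8.92%), and no other marker of these 5 lists was called. In such bulk samples fewer cells of a type and less RNA per cell cannot be told apart, and the part of these shifts in the results below was not tested.

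Per kilobase of exon, tubulins led. Tuba1a had the highest level, with a mean of 4263 CPM per kilobase after circSlc45a4 knockdown, 3481 after Slc45a4 mRNA knockdown and 4492 in scramble. Tuba1b, Tubb2b, Stmn1, Tubb2a, Tubb5, Marcksl1 and Tubb3 came next in scramble, between 1935 and 551 CPM per kilobase. Dcx stood at 145 and Map2 at 31.2 CPM per kilobase in scramble. At the other end of the scale in scramble were Nefm (5.82 CPM per kilobase), Map6 (5.37), Dpysl4 (4.38), Map1a (4.34), Nefl (3.598), Eml1 (2.05) and Nefh (0.302). The order from highest to lowest therefore ran from the tubulin subunits of growing neurites to the heavy neurofilament, which was at 24 to 37 counts per scramble library.

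**Figure D1:**
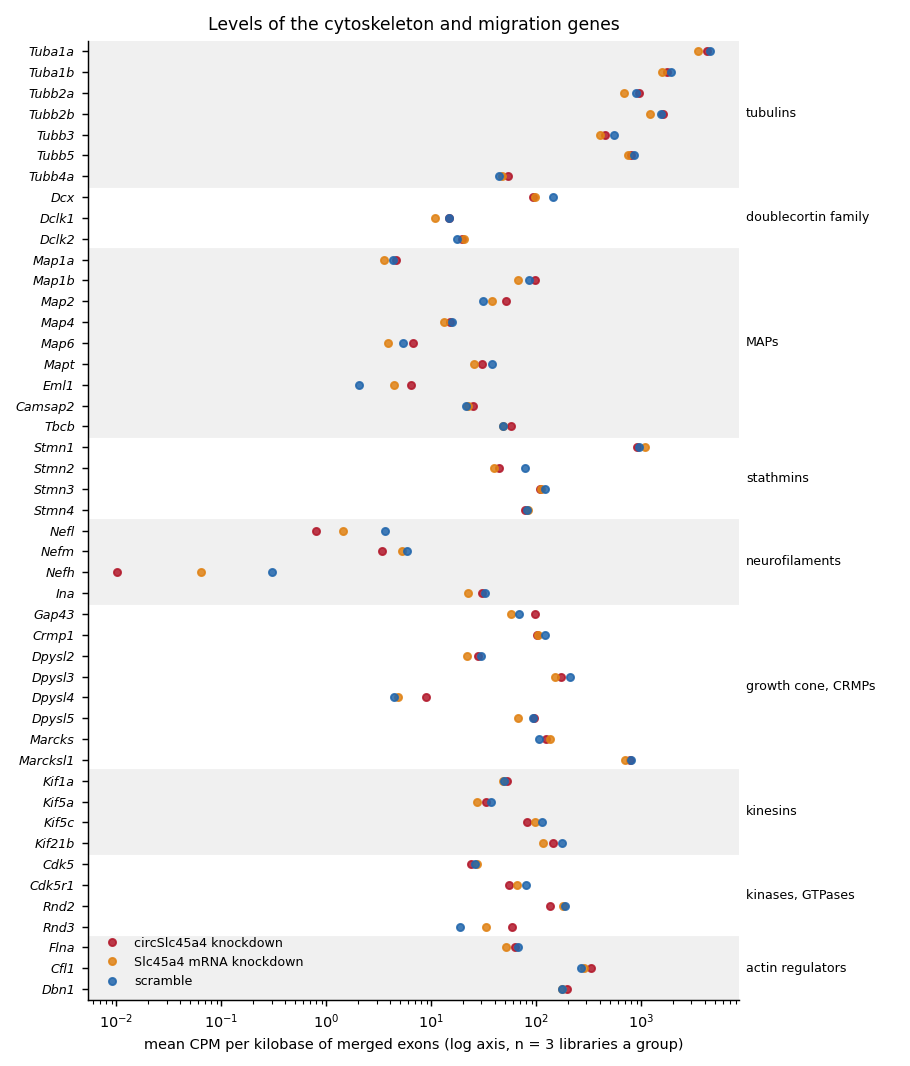
Mean level of each of the 46 genes in CPM per kilobase of merged exons (log axis, n = 3 libraries a group), by class, for the circSlc45a4 knockdown (red), the Slc45a4 mRNA knockdown (orange) and scramble (blue). Tuba1a is the highest of the 46 in each group and Nefh the lowest, and the 3 groups lie farthest apart for Nefh, Nefl, Eml1 and Rnd3.

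After circSlc45a4 knockdown, 7 of the 46 genes were called higher than in scramble and 9 lower, which is 15.2% and 19.6% of them. Over all 17760 genes tested, 14.1% were called higher and 13.0% lower. The median log2 fold change was -0.07 over the 46 genes and -0.01 over all genes, and the groups did not overlap for 26 of the 46 (56.5%, against 43.9% of all genes). After Slc45a4 mRNA knockdown, 4 were called higher and 16 lower, or 8.7% and 34.8% of the 46, against 8.92% and 9.09% of all genes. The median was -0.25 over the 46 genes and 0.01 over all genes, and the groups did not overlap for 30 (65.2%, against 36.1%). Both comparisons use the same 3 scramble libraries, so their values are set side by side without a test of likeness. With the Xist covariate, 4 of the 46 were called higher and 4 lower after circSlc45a4 knockdown, and 1 and 1 after Slc45a4 mRNA knockdown. Without scramble replicate 1 or 2 the lower calls after Slc45a4 mRNA knockdown were 10 and 9, without scramble replicate 2 its higher calls were 2, and without Slc45a4 mRNA knockdown replicate 1 the higher calls after circSlc45a4 knockdown were 12.

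The 2 knockdowns were also compared with each other. After circSlc45a4 knockdown 16 of the 46 genes were called higher than after Slc45a4 mRNA knockdown and 6 lower, or 34.8% and 13.0%, against 13.8% and 12.3% of all genes. The median log2 fold change was 0.18 over the 46 and -0.02 over all genes, and the groups did not overlap for 27 (58.7%, against 40.1%). The higher calls were 10 without circSlc45a4 knockdown replicate 1. The lower calls were 3 without circSlc45a4 knockdown replicate 1 or 3 or Slc45a4 mRNA knockdown replicate 3, 2 without Slc45a4 mRNA knockdown replicate 2, and 3 with only the 6 libraries compared. Replicate 1 of the Slc45a4 mRNA knockdown had the lowest mean log2 level of its 3 libraries in every class but the migration kinases and GTPases, and lay farthest from them for tubulins. In none of the 3 comparisons was a call made for 14 of the 46, which are named with their classes below. With upper-quartile factors in place of the main scaling, the share of calls that were higher over all genes was 42.3% against 52.1% for the circSlc45a4 knockdown over scramble and 42.1% against 52.8% between the knockdowns, and the 46 genes then gave 6 higher and 11 lower calls, and 13 and 6.

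**Figure D2:**
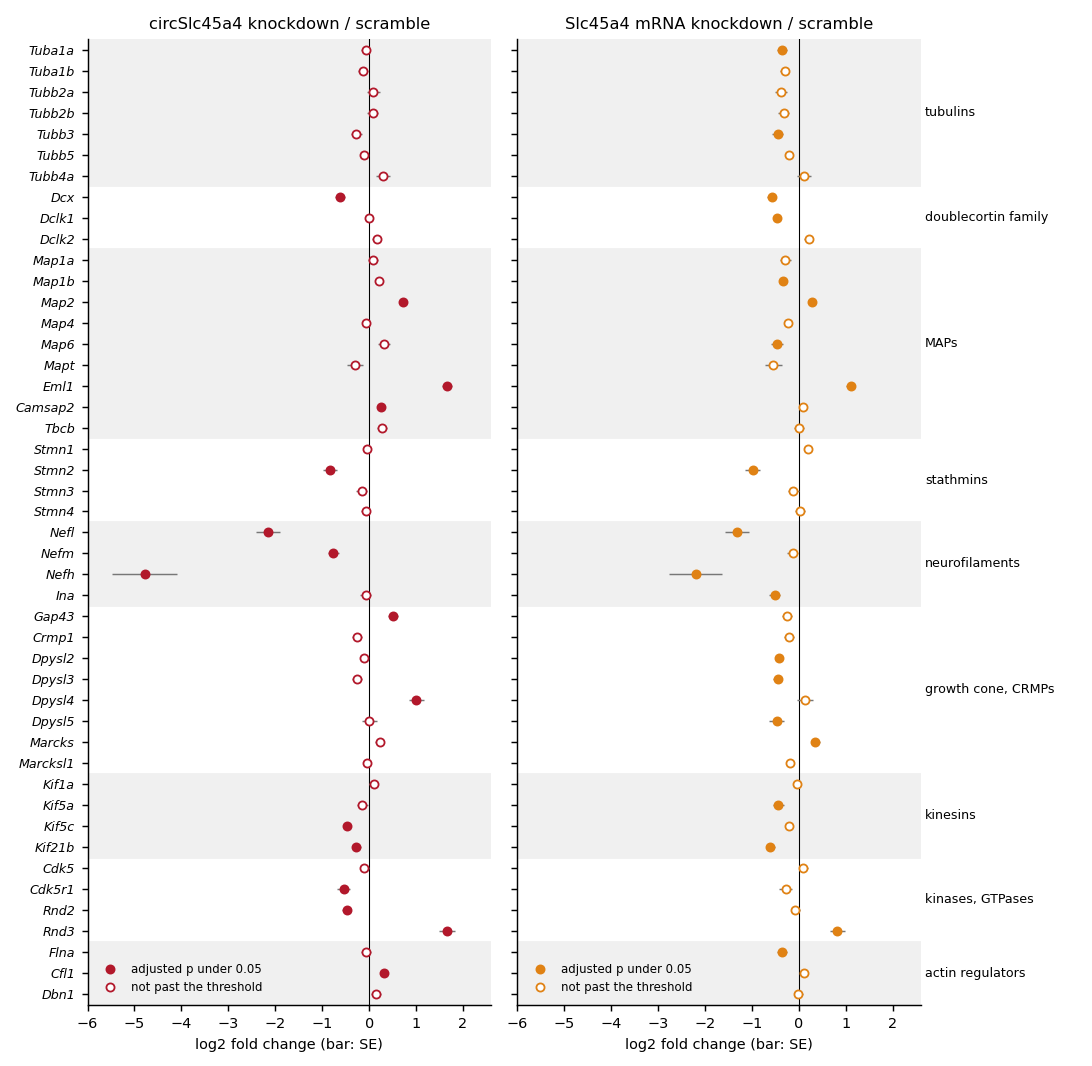
Log2 fold change (bars, standard error) of each gene against scramble after circSlc45a4 knockdown (left) and Slc45a4 mRNA knockdown (right), with genes past an adjusted p of 0.05 filled. Nefh and Nefl lie farthest to the left in both panels and Eml1 farthest to the right, with Rnd3 beside it on the left panel; 9 filled points lie below 0 on the left panel and 16 on the right.

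Among the microtubule-associated proteins, Eml1 and Map2 rose in both knockdowns, and the direct comparison set all called members higher after circSlc45a4 knockdown. Of the 9 genes, 3 rose and none fell after circSlc45a4 knockdown (33.3% and 0%, against 14.1% and 13.0% of all genes), and 2 rose and 2 fell after Slc45a4 mRNA knockdown (22.2% and 22.2%, against 8.92% and 9.09%). Eml1 (ENSMUSG00000058070.14, chr12:108370957-108539617), which encodes a microtubule-binding protein whose loss in mice leaves neurons in a band beneath the cortex, stood at 46.1, 51.9 and 45.9 CPM after circSlc45a4 knockdown, at 32.1, 32.2 and 33.1 CPM after Slc45a4 mRNA knockdown and at 17.1, 13.8 and 14.8 CPM under scramble. The 3 groups did not overlap. The change on the log2 scale was 1.66 ± 0.10 (adjusted p = 5.79e-07) after circSlc45a4 knockdown and 1.10 ± 0.10 (adjusted p = 1.78e-05) after Slc45a4 mRNA knockdown, and 0.56 ± 0.10 between them (adjusted p = 0.00118). All 3 of these calls held under all 19 alternatives, which vary the scaling, the filter, the tool and the libraries. Positions are those of the mouse build GRCm38 (mm10) with GENCODE M21 gene models.

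Map2 (ENSMUSG00000015222.17, chr1:66175273-66442583), the microtubule-associated protein of dendrites and cell bodies, stood at 794, 826 and 934 CPM after circSlc45a4 knockdown and at 585, 628 and 649 CPM after Slc45a4 mRNA knockdown, against 560.0, 492 and 488 CPM under scramble. All circSlc45a4 knockdown libraries were above all others. On the log2 scale the difference was 0.73 ± 0.09 (adjusted p = 5.16e-05) after circSlc45a4 knockdown and 0.27 ± 0.09 (adjusted p = 0.0428) after Slc45a4 mRNA knockdown. The second call was lost without circSlc45a4 knockdown replicate 1 or 2, Slc45a4 mRNA knockdown replicate 2 or 3 or scramble replicate 2 or 3 (log2 fold change 0.24 to 0.26, adjusted p = 0.0593 to 0.163), with RLE size factors (adjusted p = 0.0521), with a replicate block (adjusted p = 0.0733), with only the 6 libraries compared (adjusted p = 0.0557) and with the Xist covariate (log2 fold change 0.33, adjusted p = 0.201). The direct comparison gave 0.46 ± 0.09 (adjusted p = 0.00194).

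Map1b and Map6 moved apart between the 2 knockdowns. Map1b, a microtubule-associated protein of growing axons, stood at 1469, 1462 and 1699.8 CPM after circSlc45a4 knockdown, at 1006, 1073 and 1122 CPM after Slc45a4 mRNA knockdown and at 1419.9, 1309.9 and 1297 CPM under scramble. Map6, which protects microtubules from cold and drugs, stood at 65.7, 63.1 and 55.3 CPM after circSlc45a4 knockdown, at 27.3, 41.6 and 37.6 CPM after Slc45a4 mRNA knockdown and at 53.2, 47.7 and 46.6 CPM under scramble. For both genes the scramble libraries lay between the 2 knockdowns with no overlap. Map1b fell by 0.33 ± 0.08 after Slc45a4 mRNA knockdown on the log2 scale (adjusted p = 0.0134) and Map6 by 0.47 ± 0.13 (adjusted p = 0.0287), while after circSlc45a4 knockdown their log2 fold changes were 0.20 and 0.32 (adjusted p = 0.0842 and 0.0919). Between the knockdowns the differences were 0.53 ± 0.08 (adjusted p = 0.000464) for Map1b and 0.79 ± 0.13 (adjusted p = 0.000908) for Map6. The call of Map1b was lost without scramble replicate 1 (log2 fold change -0.29, adjusted p = 0.0609) and with the Xist covariate (log2 fold change -0.26, adjusted p = 0.310). That of Map6 was lost without Slc45a4 mRNA knockdown replicate 1 or 3 or scramble replicate 1 or 2 (log2 fold change -0.51 to -0.31, adjusted p = 0.0506 to 0.0953), and with the Xist covariate (log2 fold change -0.37, adjusted p = 0.405).

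Map1a and Camsap2 were each called in 1 comparison, and Mapt, Map4 and Tbcb in none. Map1a, related to Map1b and known from mature neurons, stood at 61.3, 55.3 and 50.8 CPM after circSlc45a4 knockdown, 46.4, 43.3 and 39.8 CPM after Slc45a4 mRNA knockdown and 45.4, 53.2 and 59.8 CPM under scramble. It was called in the direct comparison alone (0.37 ± 0.11, adjusted p = 0.0255), a call lost without circSlc45a4 knockdown replicate 1 or 2 or Slc45a4 mRNA knockdown replicate 2 or 3 (log2 fold change 0.31 to 0.39, adjusted p = 0.0547 to 0.104), with upper-quartile factors (adjusted p = 0.0504), with a replicate block (adjusted p = 0.0506) and with the Xist covariate (log2 fold change 0.34, adjusted p = 0.0568). Camsap2, which binds the minus ends of microtubules, stood at 221, 214 and 259 CPM after circSlc45a4 knockdown and 195, 209 and 218 CPM after Slc45a4 mRNA knockdown, against 192, 201 and 192 CPM under scramble. Its call after circSlc45a4 knockdown (0.25 ± 0.09, adjusted p = 0.0461) was lost without circSlc45a4 knockdown replicate 1 or 3, Slc45a4 mRNA knockdown replicate 2 or 3 or scramble replicate 1, 2 or 3 (log2 fold change 0.16 to 0.28, adjusted p = 0.0509 to 0.187), with upper-quartile factors (adjusted p = 0.111), with a replicate block (adjusted p = 0.0552) and with the Xist covariate (log2 fold change 0.36, adjusted p = 0.185). Mapt, the gene of tau, had log2 fold changes of -0.30 and -0.54 after circSlc45a4 and Slc45a4 mRNA knockdown (adjusted p = 0.233 and 0.0513). Map4, a microtubule-associated protein found in most tissues, had -0.07 and -0.24 (adjusted p = 0.567 and 0.0509). Tbcb, a cofactor that folds tubulin, had 0.28 and 0.00 (adjusted p = 0.0595 and 0.982), and 22.5% of its exon bases overlap Polr2i on the other strand.

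**Figure D3:**
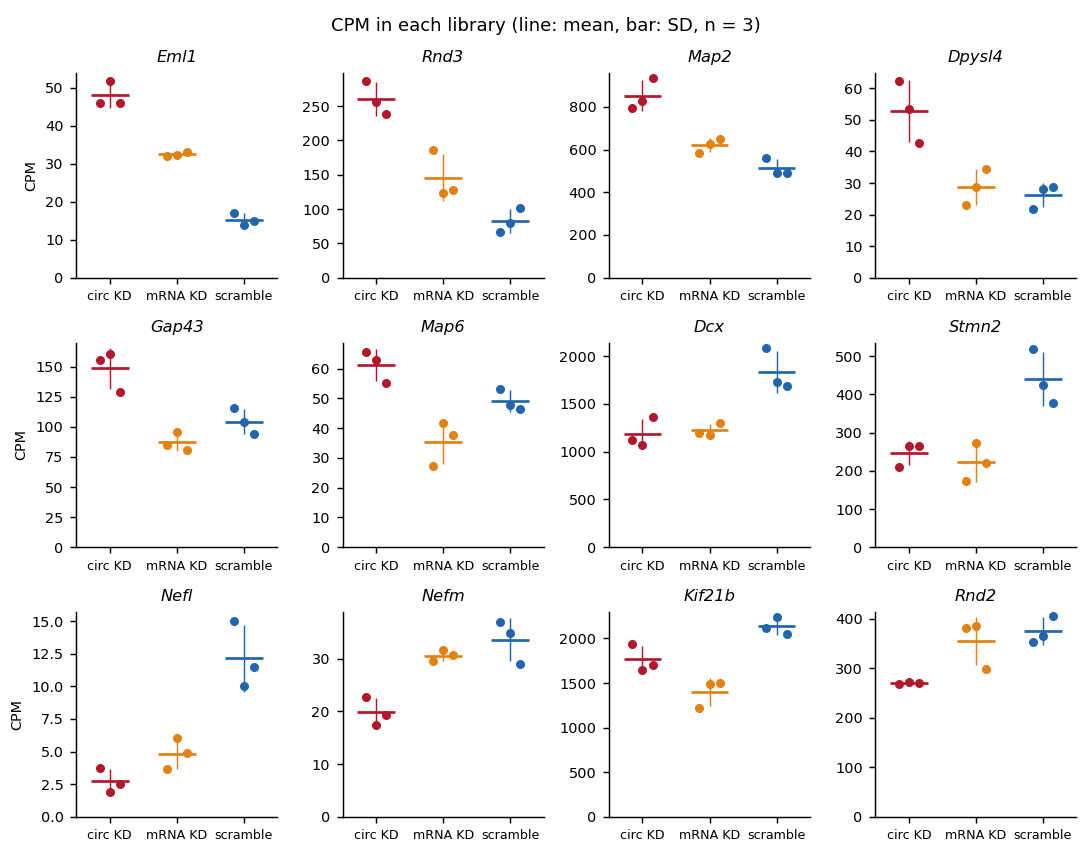
CPM in each of the 9 libraries for 12 of the genes (points, libraries; line, group mean; bar, standard deviation, n = 3), with the circSlc45a4 knockdown left, the Slc45a4 mRNA knockdown in the middle and scramble right. Eml1, Rnd3 and Map2 step down from left to right without overlap, Gap43, Dpysl4 and Rnd2 set the circSlc45a4 knockdown alone apart, and Dcx, Stmn2 and Nefl are high in scramble.

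Neurofilament genes gave the largest falls among the 46 genes. After circSlc45a4 knockdown 3 of the 4 fell and none rose, and after Slc45a4 mRNA knockdown also 3 fell (75% in each, against 13.0% and 9.09% of all genes), with Nefm called in the first alone and Ina in the second alone. Nefh is among the 3 in each. Nefh (ENSMUSG00000020396.8, chr11:4938754-4948064), the heavy subunit that appears late in axons, was at 2, 2 and 1 counts after circSlc45a4 knockdown and at 3, 14 and 11 counts after Slc45a4 mRNA knockdown, against 35, 37 and 24 counts in scramble. The 3 groups did not overlap. From the summed counts of 5, 28 and 96, the ratio of CPM to scramble was 0.0348 (95% exact interval 0.0110 to 0.0840, counting error only) after circSlc45a4 knockdown and 0.225 (0.142 to 0.346) after Slc45a4 mRNA knockdown. Nefh passed the filter, with its minimum count of 10, only through scramble. No circSlc45a4 knockdown library and not every Slc45a4 mRNA knockdown library reached that count. Its fall is therefore not independent of the filter, and its tests are given as description only. The fitted log2 fold changes were -4.79 ± 0.70 (adjusted p = 0.000266) after circSlc45a4 knockdown and -2.21 ± 0.56 (adjusted p = 0.0165) after Slc45a4 mRNA knockdown, and -2.58 ± 0.75 between the knockdowns (adjusted p = 0.0227). The call after Slc45a4 mRNA knockdown was lost without Slc45a4 mRNA knockdown replicate 1 or 3 or scramble replicate 1 or 2 (log2 fold change -2.35 to -1.79, adjusted p = 0.0501 to 0.0698) and with the Xist covariate (log2 fold change -1.96, adjusted p = 0.306), and DESeq2 gave it no adjusted p. The direct call was lost without circSlc45a4 knockdown replicate 1 or 3 or Slc45a4 mRNA knockdown replicate 2 or 3 (log2 fold change -2.66 to -2.18, adjusted p = 0.0636 to 0.0879) and with limma-voom (log2 fold change -2.21, adjusted p = 0.0778).

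Nefl (ENSMUSG00000022055.7, chr14:68083863-68089095), the light subunit that all neurofilaments share, stood at 3.76, 1.89 and 2.503 CPM after circSlc45a4 knockdown and 3.66, 6.01 and 4.87 CPM after Slc45a4 mRNA knockdown, against 15.01, 10.01 and 11.5 CPM under scramble. All scramble libraries were above all others. Its log2 fold change was -2.15 ± 0.26 (adjusted p = 5.92e-05) after circSlc45a4 knockdown and -1.32 ± 0.25 (adjusted p = 0.00295) after Slc45a4 mRNA knockdown, the second lost with the Xist covariate (log2 fold change -1.38, adjusted p = 0.0840). Between the knockdowns it was -0.83 ± 0.26 (adjusted p = 0.0309), although the 2 groups overlapped, and this call was lost without circSlc45a4 knockdown replicate 2 or 3 or Slc45a4 mRNA knockdown replicate 2 or 3 (log2 fold change -0.82 to -0.62, adjusted p = 0.0676 to 0.123). Nefm, the medium subunit, stood at 22.6, 17.4 and 19.3 CPM after circSlc45a4 knockdown and 29.5, 31.6 and 30.6 CPM after Slc45a4 mRNA knockdown, against 37.01, 34.8 and 29.02 CPM under scramble. Only the circSlc45a4 knockdown lay apart for Nefm, with log2 fold changes of -0.76 ± 0.12 against scramble (adjusted p = 0.000478) and -0.63 ± 0.12 against the Slc45a4 mRNA knockdown (adjusted p = 0.00207), while the Slc45a4 mRNA knockdown gave -0.14 (adjusted p = 0.474). Nefl and Nefm lie next to each other on opposite strands of chromosome 14, and their annotated exons overlap over 32.8% of the bases of Nefl and 19.2% of those of Nefm. The strand setting of the counting is not given in the sources used here, so reads from this overlap cannot be told apart.

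Ina, which encodes the internexin that young neurons make before the other subunits, went the other way between the knockdowns. It stood at 89.7, 109 and 98.3 CPM after circSlc45a4 knockdown and 59.9, 84.4 and 73.1 CPM after Slc45a4 mRNA knockdown, against 109, 102 and 101 CPM under scramble. The Slc45a4 mRNA knockdown lay below both other groups, with -0.52 ± 0.11 against scramble (adjusted p = 0.00658), a call lost with the Xist covariate (log2 fold change -0.47, adjusted p = 0.191). The circSlc45a4 knockdown gave -0.07 against scramble (adjusted p = 0.675) and 0.45 ± 0.11 against the Slc45a4 mRNA knockdown (adjusted p = 0.0109), the second lost without circSlc45a4 knockdown replicate 2 (log2 fold change 0.38, adjusted p = 0.0541). Of its exon bases 14.1% overlap Nt5c2 on the other strand.

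Dcx fell in both knockdowns, and its relative Dclk1 was called lower after Slc45a4 mRNA knockdown. Dcx (ENSMUSG00000031285.14, chrX:143855842-143933311), the microtubule stabiliser of migrating neurons whose human mutations cause a double cortex, stood at 1124, 1072 and 1361 CPM after circSlc45a4 knockdown and 1191, 1176 and 1301 CPM after Slc45a4 mRNA knockdown, against 2088, 1728 and 1686 CPM under scramble. All scramble libraries were above the 6 others, and the knockdowns overlapped. The log2 fold change was -0.63 ± 0.10 (adjusted p = 0.000701) after circSlc45a4 knockdown and -0.58 ± 0.10 (adjusted p = 0.00195) after Slc45a4 mRNA knockdown, and -0.04 ± 0.10 between them (adjusted p = 0.801). Dcx lies on the X chromosome. With the Xist covariate its log2 fold changes were -0.55 ± 0.19 and -0.53 ± 0.16, and both calls were lost (adjusted p = 0.106 and 0.101). Dclk1, which joins doublecortin domains to a kinase, stood at 222, 206 and 249.9 CPM after circSlc45a4 knockdown and 149, 169 and 173 CPM after Slc45a4 mRNA knockdown, against 241, 220.2 and 219.7 CPM under scramble. It fell after Slc45a4 mRNA knockdown (-0.47 ± 0.09, adjusted p = 0.00312), a call lost with the Xist covariate (log2 fold change -0.40, adjusted p = 0.153). Its level was higher after circSlc45a4 knockdown than after Slc45a4 mRNA knockdown (0.46 ± 0.09, adjusted p = 0.00230), a call that held under all 19 alternatives. Dclk2, close to Dclk1, gave 0.16 and 0.20 against scramble after circSlc45a4 and Slc45a4 mRNA knockdown (adjusted p = 0.236 and 0.161).

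Among the stathmins, Stmn2 fell in both knockdowns and the other 3 were not called against scramble. Stmn2 (ENSMUSG00000027500.10, chr3:8509360-8561606), the stathmin of growth cones, stood at 210.3, 266 and 265 CPM after circSlc45a4 knockdown and 173, 274 and 221 CPM after Slc45a4 mRNA knockdown, against 518, 424 and 379 CPM under scramble. The knockdowns overlapped each other and lay below every scramble library. The change on the log2 scale was -0.83 ± 0.16 (adjusted p = 0.00164) after circSlc45a4 knockdown and -0.98 ± 0.16 (adjusted p = 0.000901) after Slc45a4 mRNA knockdown, and both calls were lost with the Xist covariate (log2 fold change -0.83 and -0.98, adjusted p = 0.110 and 0.05005). Stmn1, the most abundant stathmin and one also made by dividing cells, stood at 1667, 1847 and 1757 CPM after circSlc45a4 knockdown, 2178, 2112 and 1916 CPM after Slc45a4 mRNA knockdown and 1914, 1792 and 1756 CPM under scramble. It was called in the direct comparison (-0.24 ± 0.08, adjusted p = 0.0356), a call lost without circSlc45a4 knockdown replicate 1 or 3, Slc45a4 mRNA knockdown replicate 1 or 2 or scramble replicate 2 (log2 fold change -0.24 to -0.19, adjusted p = 0.0621 to 0.142), with no filter, with only the 6 libraries compared and with a replicate block (adjusted p = 0.0545, 0.0812 and 0.0580). Stmn3 had log2 fold changes of -0.16 and -0.12 and Stmn4 of -0.07 and 0.02 after circSlc45a4 and Slc45a4 mRNA knockdown, with adjusted p of 0.313 to 0.932.

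Tubulin genes changed little, and those called against scramble were lower after Slc45a4 mRNA knockdown. Of 7, none was called after circSlc45a4 knockdown and 2 fell after Slc45a4 mRNA knockdown (28.6%, against 9.09% of all genes), where 6 of the 7 fold changes were below 0. Tubb3, the neuronal beta-tubulin, stood at 847, 865 and 834 CPM after circSlc45a4 knockdown and 586, 885 and 787 CPM after Slc45a4 mRNA knockdown, against 1079, 1025 and 982 CPM under scramble. Every scramble library was above both knockdowns. Its level fell after Slc45a4 mRNA knockdown (-0.45 ± 0.12, adjusted p = 0.0179) and gave -0.28 ± 0.12 after circSlc45a4 knockdown (adjusted p = 0.0979). The fall was lost without scramble replicate 1 or 2 (log2 fold change -0.45 to -0.41, adjusted p = 0.0633 to 0.0641) and with the Xist covariate (log2 fold change -0.36, adjusted p = 0.343), and it was smaller without Slc45a4 mRNA knockdown replicate 1 (log2 fold change -0.29, adjusted p = 0.0149). Tuba1a, the alpha-tubulin of newborn neurons, stood at 7598, 7747 and 7712 CPM after circSlc45a4 knockdown and 5179, 7291 and 6357 CPM after Slc45a4 mRNA knockdown, against 8662, 8068 and 7568 CPM under scramble. It fell after Slc45a4 mRNA knockdown (-0.37 ± 0.10, adjusted p = 0.0258), a call lost without Slc45a4 mRNA knockdown replicate 3 or scramble replicate 1 or 2 (log2 fold change -0.38 to -0.32, adjusted p = 0.0601 to 0.0948), with only the 6 libraries compared (adjusted p = 0.0561) and with the Xist covariate (log2 fold change -0.33, adjusted p = 0.328), and smaller without Slc45a4 mRNA knockdown replicate 1 (log2 fold change -0.24, adjusted p = 0.0311). Replicate 1 was the lowest library of its group for each of the 7 tubulins.

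Tubb2a and Tubb2b, a neighbouring pair of beta-tubulin genes on chromosome 13, differed between the knockdowns. Tubb2a stood at 1617, 1529 and 1483 CPM after circSlc45a4 knockdown, 813, 1310.5 and 1212 CPM after Slc45a4 mRNA knockdown and 1491, 1493 and 1356 CPM under scramble. Tubb2b stood at 3779, 3692 and 3656 CPM after circSlc45a4 knockdown, 2196, 3147 and 3062 CPM after Slc45a4 mRNA knockdown and 3668, 3587 and 3300.1 CPM under scramble. For both, every Slc45a4 mRNA knockdown library was below the 6 others. The direct comparison gave 0.47 ± 0.13 for Tubb2a (adjusted p = 0.0202) and 0.40 ± 0.11 for Tubb2b (adjusted p = 0.0174). The first was lost without circSlc45a4 knockdown replicate 1 or 2 (log2 fold change 0.44 to 0.49, adjusted p = 0.0538 to 0.0734) and the second without circSlc45a4 knockdown replicate 1 (log2 fold change 0.40, adjusted p = 0.0582), and both were smaller without Slc45a4 mRNA knockdown replicate 1 (log2 fold change 0.29, adjusted p = 0.0102 for Tubb2a and log2 fold change 0.26, adjusted p = 0.00799 for Tubb2b). Against scramble the Slc45a4 mRNA knockdown gave -0.38 and -0.33 (adjusted p = 0.0676 and 0.0581). Tuba1b, Tubb5 and Tubb4a were called in no comparison, with log2 fold changes of -0.13, -0.11 and 0.30 after circSlc45a4 knockdown and -0.31, -0.21 and 0.11 after Slc45a4 mRNA knockdown.

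For 4 of the 7 tubulins the genes are so alike that their counts cannot be fully separated. Of all 50-base stretches of the annotated transcripts, 72.9% for Tuba1a and 66.7% for Tuba1b also occur in another gene. For Tuba1c alone the shares were 46.9% and 53.6%. Part of the totals can come from Gm49450, whose exons overlap 26.2% of the exon bases of Tuba1a and 22.7% of those of Tuba1b. Gm49450 lies on the same strand and is not among the gene IDs counted. For Tubb2a and Tubb2b the shares were 49.6% and 36.9%. Tubb3, Tubb5 and Tubb4a share at most 0.2%. Among the other members the share was 18.9% for Stmn1, 7.3% for Cfl1 and at most 2.2% for the rest. The coding sequences of Tuba1a and Tuba1b are identical at 98.3% of their 1356 bases.

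Growth cone genes called in the direct comparison were all higher after circSlc45a4 knockdown, and none was called in opposite directions against scramble. Of 8, 2 rose and none fell after circSlc45a4 knockdown (25% and 0%, against 14.1% and 13.0% of all genes). After Slc45a4 mRNA knockdown 1 rose and 3 fell (12.5% and 37.5%, against 8.92% and 9.09%), and in the direct comparison 4 were higher and none lower after circSlc45a4 knockdown (50% and 0%, against 13.8% and 12.3%). Gap43, a membrane protein of growing axon tips, stood at 156, 161 and 129 CPM after circSlc45a4 knockdown and 84.9, 95.6 and 80.98 CPM after Slc45a4 mRNA knockdown, against 115, 104 and 94.1 CPM under scramble. Every circSlc45a4 knockdown library was above the 6 others. On the log2 scale the difference was 0.51 ± 0.10 after circSlc45a4 knockdown (adjusted p = 0.00275), a call lost with the Xist covariate (log2 fold change 0.35, adjusted p = 0.279). Against the Slc45a4 mRNA knockdown it was 0.77 ± 0.10 (adjusted p = 0.000197), which held under all 19 alternatives, and the Slc45a4 mRNA knockdown gave -0.26 against scramble (adjusted p = 0.104). Dpysl4 (ENSMUSG00000025478.15, chr7:139086001-139102704), a collapsin response protein, stood at 62.4, 53.6 and 42.6 CPM after circSlc45a4 knockdown and 22.9, 28.8 and 34.5 CPM after Slc45a4 mRNA knockdown, against 21.8, 28.2 and 28.7 CPM under scramble. The circSlc45a4 knockdown again lay above both other groups, which overlapped. Its log2 fold changes were 1.01 ± 0.17 against scramble (adjusted p = 0.000672) and 0.88 ± 0.16 against the Slc45a4 mRNA knockdown (adjusted p = 0.00186), and both calls held under all 19 alternatives.

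Of the other collapsin response genes, Dpysl2, Dpysl3 and Dpysl5 fell after Slc45a4 mRNA knockdown. Dpysl2, whose protein carries tubulin dimers to growing axons, stood at 125, 125 and 123 CPM after circSlc45a4 knockdown and 105, 105 and 88.2 CPM after Slc45a4 mRNA knockdown, against 133, 139 and 131 CPM under scramble. Its log2 fold change was -0.43 ± 0.08 after Slc45a4 mRNA knockdown (adjusted p = 0.00256) and 0.32 ± 0.08 in the direct comparison (adjusted p = 0.0101). Dpysl3 stood at 1073, 1077 and 1285 CPM after circSlc45a4 knockdown and 875, 1072 and 1048 CPM after Slc45a4 mRNA knockdown, against 1511, 1352 and 1248 CPM under scramble. A fall was called after Slc45a4 mRNA knockdown (-0.46 ± 0.10, adjusted p = 0.00836), a call lost with the Xist covariate (log2 fold change -0.39, adjusted p = 0.227). Dpysl5 stood at 668, 656 and 762 CPM after circSlc45a4 knockdown and 345, 580.1 and 567 CPM after Slc45a4 mRNA knockdown, against 743, 701 and 631 CPM under scramble, with replicate 1 of the Slc45a4 mRNA knockdown far below its sisters. Its fall after Slc45a4 mRNA knockdown (-0.48 ± 0.15, adjusted p = 0.0485) was lost without circSlc45a4 knockdown replicate 1, 2 or 3, Slc45a4 mRNA knockdown replicate 1 or scramble replicate 1, 2 or 3 (log2 fold change -0.54 to -0.27, adjusted p = 0.0545 to 0.137), with only the 6 libraries compared, a replicate block and the Xist covariate (adjusted p = 0.0786, 0.0595 and 0.632, the last at a log2 fold change of -0.25), and its direct difference (0.48 ± 0.15, adjusted p = 0.0344) without circSlc45a4 knockdown replicate 1, 2 or 3 or scramble replicate 2 (log2 fold change 0.41 to 0.53, adjusted p = 0.0532 to 0.108), with upper-quartile factors and with only the 6 libraries compared (adjusted p = 0.0529 and 0.0532). Without Slc45a4 mRNA knockdown replicate 1 the direct difference was smaller (log2 fold change 0.28, adjusted p = 0.0335). Crmp1, a further family member, gave -0.25 and -0.21 over scramble after circSlc45a4 and Slc45a4 mRNA knockdown (adjusted p = 0.108 and 0.213).

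Marcks, an actin-binding substrate of protein kinase C, was the member of this class that rose after Slc45a4 mRNA knockdown. It stood at 513, 474 and 508 CPM after circSlc45a4 knockdown and 604, 476 and 550.4 CPM after Slc45a4 mRNA knockdown, against 449, 397 and 435 CPM under scramble, and both knockdowns lay above scramble. Its log2 fold change was 0.35 ± 0.09 after Slc45a4 mRNA knockdown (adjusted p = 0.0184) and 0.22 ± 0.09 after circSlc45a4 knockdown (adjusted p = 0.0885). The call was lost without scramble replicate 2 (log2 fold change 0.30, adjusted p = 0.0963) and with the Xist covariate (log2 fold change 0.33, adjusted p = 0.228). Its relative Marcksl1 had -0.05 and -0.19 after circSlc45a4 and Slc45a4 mRNA knockdown (adjusted p = 0.646 and 0.0970).

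No kinesin rose against scramble, and 2 of 4 fell in each knockdown (50%, against 13.0% and 9.09% of all genes). Kif21b, a motor that also slows microtubule growth, stood at 1938, 1649 and 1705 CPM after circSlc45a4 knockdown and 1221, 1484 and 1495 CPM after Slc45a4 mRNA knockdown, against 2113, 2243 and 2051 CPM under scramble. The 3 groups did not overlap, and scramble was the highest. The log2 fold change was -0.61 ± 0.09 after Slc45a4 mRNA knockdown (adjusted p = 0.000664), lost with the Xist covariate (log2 fold change -0.50, adjusted p = 0.0705). After circSlc45a4 knockdown it was -0.28 ± 0.09 (adjusted p = 0.0411), a call lost without circSlc45a4 knockdown replicate 2 or 3 or scramble replicate 1, 2 or 3 (log2 fold change -0.30 to -0.23, adjusted p = 0.0641 to 0.160), with a replicate block (adjusted p = 0.0790) and with the Xist covariate (log2 fold change -0.13, adjusted p = 0.686). The direct difference was 0.33 ± 0.09 (adjusted p = 0.0179), lost without circSlc45a4 knockdown replicate 1 (log2 fold change 0.27, adjusted p = 0.0869). Kif5c, a heavy chain of conventional kinesin, stood at 557, 539 and 651 CPM after circSlc45a4 knockdown and 687, 672 and 720.0 CPM after Slc45a4 mRNA knockdown, against 835, 801 and 776 CPM under scramble. Here the circSlc45a4 knockdown was the lowest of 3 groups that did not overlap.

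Kif5c fell after circSlc45a4 knockdown (-0.47 ± 0.08, adjusted p = 0.00109), a call lost with the Xist covariate (log2 fold change -0.41, adjusted p = 0.129), and gave -0.21 after Slc45a4 mRNA knockdown (adjusted p = 0.0892). Its direct difference (-0.25 ± 0.08, adjusted p = 0.0384) was lost without circSlc45a4 knockdown replicate 1 or 2, Slc45a4 mRNA knockdown replicate 2 or 3 or scramble replicate 2 or 3 (log2 fold change -0.27 to -0.19, adjusted p = 0.0522 to 0.160), with only the 6 libraries compared, a replicate block and the Xist covariate (adjusted p = 0.0792, 0.0518 and 0.0740, the last at a log2 fold change of -0.24). Kif5a, its neuronal relative, stood at 252, 215 and 232 CPM after circSlc45a4 knockdown and 154, 214 and 202 CPM after Slc45a4 mRNA knockdown, against 276, 255 and 243 CPM under scramble. Its level fell after Slc45a4 mRNA knockdown (-0.44 ± 0.11, adjusted p = 0.0167), a call lost without scramble replicate 1 or 2 (log2 fold change -0.45 to -0.39, adjusted p = 0.0566 to 0.0648) and with the Xist covariate (log2 fold change -0.35, adjusted p = 0.336). Kif1a, which moves precursors of synaptic vesicles, had 0.10 and -0.05 after circSlc45a4 and Slc45a4 mRNA knockdown (adjusted p = 0.465 and 0.757).

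The paired GTPases Rnd2 and Rnd3 moved in opposite directions after circSlc45a4 knockdown. Both encode proteins that lack GTPase activity, and in the mouse cortex they are known to act at successive steps of radial migration. Rnd3 (ENSMUSG00000017144.8, chr2:51130438-51149111) stood at 287, 256 and 239 CPM after circSlc45a4 knockdown and 186, 124 and 128 CPM after Slc45a4 mRNA knockdown, against 66.99, 79.1 and 101 CPM under scramble. The 3 groups did not overlap. Its log2 fold change was 1.66 ± 0.17 after circSlc45a4 knockdown (adjusted p = 1.35e-05), 0.82 ± 0.16 after Slc45a4 mRNA knockdown (adjusted p = 0.00387) and 0.84 ± 0.16 between them (adjusted p = 0.00221). The second of these was lost with the Xist covariate (log2 fold change 0.62, adjusted p = 0.185), and the other 2 calls held under all 19 alternatives. Rnd2 (ENSMUSG00000001313.12, chr11:101464999-101471853) stood at 268, 273 and 270.5 CPM after circSlc45a4 knockdown and 382, 385 and 299 CPM after Slc45a4 mRNA knockdown, against 354, 366 and 407 CPM under scramble. The circSlc45a4 knockdown lay below both other groups, which overlapped, with -0.47 ± 0.10 against scramble (adjusted p = 0.00301) and -0.39 ± 0.10 against the Slc45a4 mRNA knockdown (adjusted p = 0.00987). Of its exon bases 11.4% overlap Vat1 on the other strand.

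Cdk5, the kinase whose loss blocks migration, was not called, with log2 fold changes of -0.10 and 0.09 after circSlc45a4 and Slc45a4 mRNA knockdown (adjusted p = 0.479 and 0.569). Its activator p35, encoded by Cdk5r1, stood at 227, 204 and 248 CPM after circSlc45a4 knockdown and 206, 294 and 310.1 CPM after Slc45a4 mRNA knockdown, against 374, 323 and 289 CPM under scramble. The circSlc45a4 knockdown lay below every scramble library, while the Slc45a4 mRNA knockdown overlapped both. Cdk5r1 fell after circSlc45a4 knockdown (-0.54 ± 0.14, adjusted p = 0.0125) and gave -0.28 after Slc45a4 mRNA knockdown (adjusted p = 0.185). The fall was lost without circSlc45a4 knockdown replicate 2 or scramble replicate 1 (log2 fold change -0.47 to -0.44, adjusted p = 0.0561 to 0.0678) and with the Xist covariate (log2 fold change -0.26, adjusted p = 0.566).

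Rnd3 and Dcx moved in opposite directions in both knockdowns, and the bases just before their annotated gene starts are shown for that reason. A search for 4 motifs covered both strands of the 250 bases before the RefSeq start (GRCm38.p6) of the 27 members that matched an entry. The motif TATAAA, where the general transcription machinery can bind, was found before 5 of them (18.5%, against 12.4% of 32851 promoters). The E box motif CANNTG, which proneural factors can bind, was found before 16 (59.3%, against 66.2%). Its form CAGATG, a subset of the matches before, was found before 4 members (14.8%, against 14.4%). The motif CCGCCC, the site of Sp proteins, was found before 17 (63.0%, against 32.7%). These include Flna, Tbcb and Map4, whose RefSeq starts lie 3286, 881 and 314 bases inside the annotated gene. Of the 27 promoter entries, 24 held an annotated transcript start in the same orientation. Both stretches shown lie on the minus strand and hold TATAAA, and that of Rnd3 also holds the reverse complement of CAGATG. These matches are in capitals. The Rnd3 stretch is chr2:51149112-51149361. It runs up to the RefSeq start, which is also the annotated gene start. That of Dcx, chrX:143933312-143933469, leaves out the 92 bases before the RefSeq start that lie inside the annotated gene. Its TATAAA therefore ends at the annotated gene start and 92 bases before the RefSeq start. The 2 matches do not lie at like distances from a start, and whether either is used was not tested.
Rnd3: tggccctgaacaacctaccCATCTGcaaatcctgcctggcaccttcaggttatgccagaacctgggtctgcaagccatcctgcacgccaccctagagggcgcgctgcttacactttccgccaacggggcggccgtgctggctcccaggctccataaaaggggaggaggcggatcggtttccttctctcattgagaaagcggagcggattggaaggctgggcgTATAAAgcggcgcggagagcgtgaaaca
Dcx: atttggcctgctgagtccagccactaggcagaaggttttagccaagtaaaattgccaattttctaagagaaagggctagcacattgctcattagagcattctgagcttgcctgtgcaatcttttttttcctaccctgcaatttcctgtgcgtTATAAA

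Of the 3 actin regulators, Cfl1 rose after circSlc45a4 knockdown and Flna fell after Slc45a4 mRNA knockdown. Cfl1, which encodes cofilin, the protein that cuts actin filaments, stood at 909.9, 973 and 932 CPM after circSlc45a4 knockdown and 783, 866 and 793 CPM after Slc45a4 mRNA knockdown, against 755, 757 and 742 CPM under scramble. The 3 groups did not overlap. The change on the log2 scale was 0.32 ± 0.07 after circSlc45a4 knockdown (adjusted p = 0.00440), lost with the Xist covariate (log2 fold change 0.28, adjusted p = 0.213), and 0.12 ± 0.07 after Slc45a4 mRNA knockdown (adjusted p = 0.281). The direct difference (0.20 ± 0.07, adjusted p = 0.0465) was lost without circSlc45a4 knockdown replicate 1, 2 or 3, Slc45a4 mRNA knockdown replicate 1 or 3 or scramble replicate 1, 2 or 3 (log2 fold change 0.18 to 0.23, adjusted p = 0.0659 to 0.119), and with upper-quartile factors, no filter, only the 6 libraries compared, a replicate block and the Xist covariate (adjusted p = 0.0612 to 0.135, with a log2 fold change of 0.20 under the covariate). Of the exon bases of Cfl1 16.5% overlap Snx32 on the other strand. Flna, an actin crosslinker whose human mutations leave neurons at the ventricle, stood at 698, 527 and 556 CPM after circSlc45a4 knockdown and 425, 499 and 525 CPM after Slc45a4 mRNA knockdown, against 575, 639 and 653 CPM under scramble. It lies on the X chromosome, and its fall after Slc45a4 mRNA knockdown (-0.37 ± 0.11, adjusted p = 0.0369) was lost without Slc45a4 mRNA knockdown replicate 1 or 2 or scramble replicate 2 or 3 (log2 fold change -0.39 to -0.28, adjusted p = 0.0620 to 0.124), with a replicate block (adjusted p = 0.0708) and with the Xist covariate (log2 fold change -0.23, adjusted p = 0.540). Dbn1, which encodes drebrin, had 0.15 and -0.02 after circSlc45a4 and Slc45a4 mRNA knockdown (adjusted p = 0.302 and 0.940).

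By class, the median log2 fold change was lowest for the neurofilaments, at -1.46 after circSlc45a4 knockdown and -0.92 after Slc45a4 mRNA knockdown, against -0.01 and 0.01 over all genes. The neurofilament medians include Nefh, which passed the filter only through scramble. The median was highest for the microtubule-associated proteins after circSlc45a4 knockdown (0.25), which stood at -0.24 after Slc45a4 mRNA knockdown. The tubulins gave -0.08 and -0.33, the doublecortin family -0.01 and -0.47, the stathmins -0.12 and -0.05, and the growth cone genes -0.02 and -0.23 after circSlc45a4 and Slc45a4 mRNA knockdown. The kinesins gave -0.21 and -0.33, the migration kinases and GTPases -0.29 and 0.01, and the actin regulators 0.15 and -0.01 in the same order. In the plot of class levels by library, the microtubule-associated proteins of the circSlc45a4 knockdown lay 0.34 to 0.36 above the scramble mean on the log2 scale and above all other libraries, and replicate 1 was the lowest of the Slc45a4 mRNA knockdown there too.

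**Figure D4:**
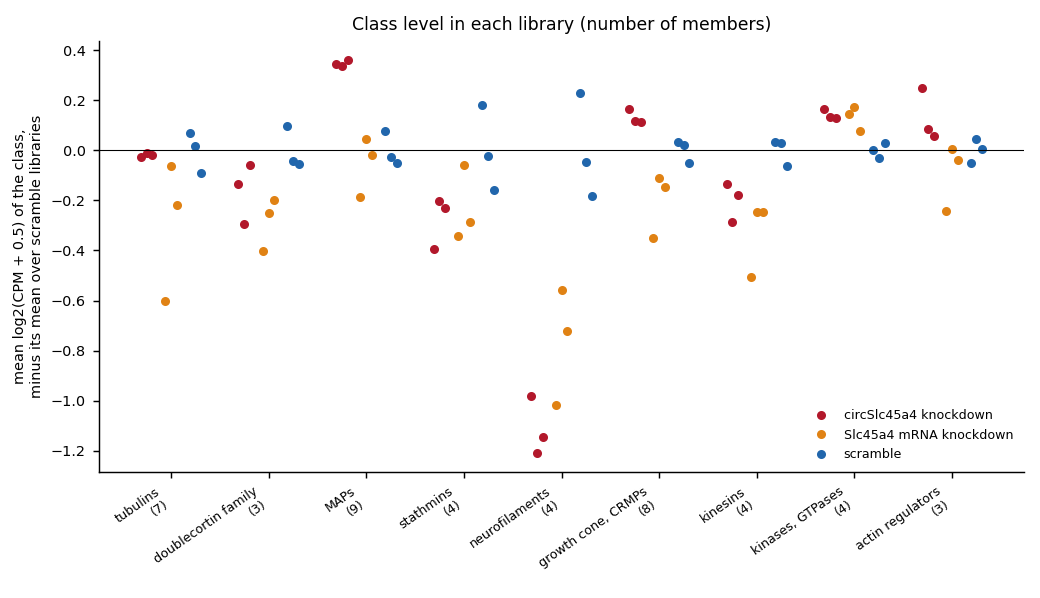
Mean log2(CPM + 0.5) of each class in each library, minus the mean of the 3 scramble libraries, for the circSlc45a4 knockdown (red), the Slc45a4 mRNA knockdown (orange) and scramble (blue). Neurofilaments lie lowest in both knockdowns (-0.98 to -1.21 after circSlc45a4 knockdown, -0.56 to -1.02 after Slc45a4 mRNA knockdown), microtubule-associated proteins (MAPs) are highest after circSlc45a4 knockdown (0.34 to 0.36), and Slc45a4 mRNA knockdown replicate 1 lies apart for tubulins (-0.60). The mean of a class carries no test.

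**Figure D5:**
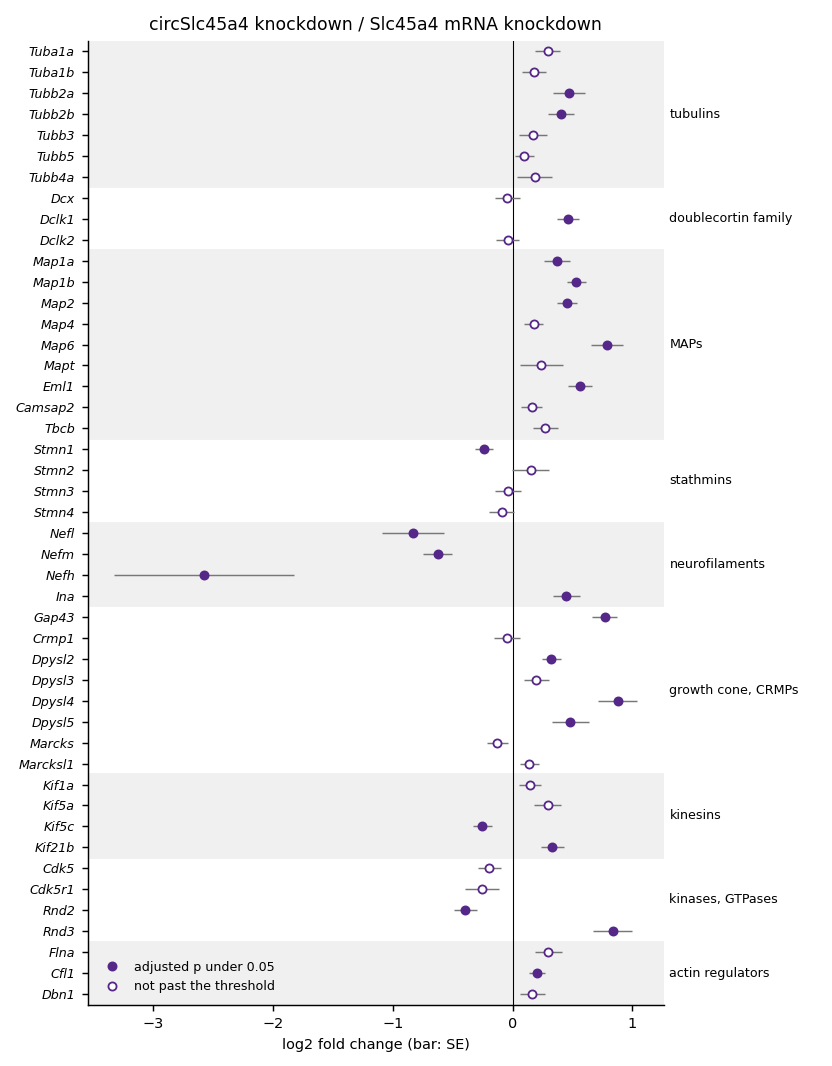
Log2 fold change (bars, standard error) of each gene after circSlc45a4 knockdown against the Slc45a4 mRNA knockdown, with genes past an adjusted p of 0.05 filled. The 16 filled points above 0 include 5 microtubule-associated proteins and 4 growth cone genes, and the 6 below 0 include Nefl, Nefm and Nefh.

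Other genes of these pathways were read from lists of the same machinery. For a call lost with the Xist covariate the log2 fold change of that fit is given. Among 22 other tubulin and tubulin-folding genes, 21 of them tested, 3 rose and 5 fell after circSlc45a4 knockdown (14.3% and 23.8%, against 14.1% and 13.0% of all genes), 1 rose and 3 fell after Slc45a4 mRNA knockdown (4.8% and 14.3%, against 8.92% and 9.09%), and 5 were higher and 2 lower in the direct comparison (23.8% and 9.5%, against 13.8% and 12.3%). Their median log2 fold changes were, in the same order, 0.07, -0.07 and 0.01. Tuba4a, an alpha-tubulin of mature neurons, stood at 22.6, 24.5 and 24.99 CPM after circSlc45a4 knockdown and 13.1, 18.1 and 18.9 CPM after Slc45a4 mRNA knockdown, against 39.2, 42 and 35.8 CPM under scramble. It fell after Slc45a4 mRNA knockdown (-1.22 ± 0.13, adjusted p = 5.1e-05) and after circSlc45a4 knockdown (-0.70 ± 0.13, adjusted p = 0.00148, lost with the Xist covariate at -0.40). Vash1, a carboxypeptidase that removes the last tyrosine of alpha-tubulin, had -0.71 ± 0.09 and -0.47 ± 0.09 after circSlc45a4 and Slc45a4 mRNA knockdown (adjusted p = 8.92e-05 and 0.00321, the second lost with the Xist covariate at -0.45). Ttl, the ligase that puts this tyrosine back, had -0.51 ± 0.08 (adjusted p = 0.000482, lost with the Xist covariate at -0.48) and 0.03 (adjusted p = 0.810). In the direct comparison Ttl was lower (-0.54 ± 0.08, adjusted p = 0.000354) and Tuba4a higher (0.52 ± 0.13, adjusted p = 0.0105). Ttll7, a ligase that adds glutamates to tubulin, rose after circSlc45a4 knockdown (0.67 ± 0.13, adjusted p = 0.00213, lost with the Xist covariate at 0.75) and was higher than after Slc45a4 mRNA knockdown (0.54 ± 0.13, adjusted p = 0.00874). Tbcd, a tubulin cofactor, was also higher there (0.34 ± 0.08, adjusted p = 0.00732). After Slc45a4 mRNA knockdown Tbce, a cofactor too, rose (0.38 ± 0.09, adjusted p = 0.0132), a call lost without scramble replicate 2 (log2 fold change 0.32, adjusted p = 0.0770) and with the Xist covariate at 0.37. Tuba1c fell (-0.38 ± 0.11, adjusted p = 0.0316), lost without Slc45a4 mRNA knockdown replicate 3 or scramble replicate 1 or 2 (log2 fold change -0.39 to -0.34, adjusted p = 0.0696 to 0.1003), with only the 6 libraries compared and with the Xist covariate at -0.33.

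Of 18 genes of dynein and its regulators around Lis1, 2 rose and 3 fell after circSlc45a4 knockdown (11.1% and 16.7%, against 14.1% and 13.0% of all genes), 4 rose and 3 fell after Slc45a4 mRNA knockdown (22.2% and 16.7%, against 8.92% and 9.09%), and 6 were higher and 4 lower in the direct comparison (33.3% and 22.2%, against 13.8% and 12.3%). Their medians in the 3 comparisons were 0.05, 0.06 and 0.09. Dynll2, a light chain of dynein, stood at 219, 206 and 206 CPM after circSlc45a4 knockdown and 129, 145 and 144 CPM after Slc45a4 mRNA knockdown, against 76.8, 68.7 and 65.3 CPM under scramble. The 3 groups did not overlap, with 1.58 ± 0.08 (adjusted p = 2.36e-07) and 0.99 ± 0.08 (adjusted p = 8.69e-06) against scramble. Ywhae, which encodes the 14-3-3 protein that protects phosphorylated Ndel1, stood at 367, 396 and 408 CPM after circSlc45a4 knockdown and 787, 716 and 679 CPM after Slc45a4 mRNA knockdown, against 776, 703 and 694 CPM under scramble. A fall was called after circSlc45a4 knockdown (-0.89 ± 0.08, adjusted p = 7.44e-06), while the Slc45a4 mRNA knockdown gave 0.01 (adjusted p = 0.966). Bicd2, a dynein adaptor, had 0.55 ± 0.08 and 0.44 ± 0.08 (adjusted p = 0.000171 and 0.00158). Between the knockdowns Ywhae gave -0.90 ± 0.08 and Dynll2 0.60 ± 0.08 (adjusted p = 1.06e-05 and 0.000216). Pafah1b2, a catalytic partner of Lis1, fell in both knockdowns (-0.31 ± 0.07 and -0.38 ± 0.07, adjusted p = 0.00658 and 0.00275), and both calls were lost with the Xist covariate at -0.34 and -0.40. Dctn2, a subunit of dynactin, fell after Slc45a4 mRNA knockdown (-0.36 ± 0.09, adjusted p = 0.0118), lost without scramble replicate 2 (log2 fold change -0.36, adjusted p = 0.0535) and with the Xist covariate at -0.31. It was higher in the direct comparison (0.38 ± 0.09, adjusted p = 0.00669), as was Pafah1b3 (0.39 ± 0.10, adjusted p = 0.00993).

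Of 24 genes of microtubule plus ends and severing, 1 rose and 3 fell after circSlc45a4 knockdown (4.2% and 12.5%, against 14.1% and 13.0% of all genes), 1 rose and 4 fell after Slc45a4 mRNA knockdown (4.2% and 16.7%, against 8.92% and 9.09%), and 3 were higher and 2 lower in the direct comparison (12.5% and 8.3%, against 13.8% and 12.3%). Their medians in the 3 comparisons were -0.04, -0.06 and 0.07. Katnal1, a katanin-like severing enzyme, had -0.55 ± 0.09 after Slc45a4 mRNA knockdown (adjusted p = 0.000951, lost with the Xist covariate at -0.48) and -0.11 after circSlc45a4 knockdown (adjusted p = 0.384). Its direct difference was 0.44 ± 0.09 (adjusted p = 0.00288). Map7d2, a gene of the X chromosome, fell in both knockdowns (-0.56 ± 0.14 and -0.67 ± 0.14, adjusted p = 0.00920 and 0.00550). After circSlc45a4 knockdown Mapre3, an end-binding protein, fell (-0.54 ± 0.11, adjusted p = 0.00247, lost with the Xist covariate at -0.42), and Clip1, which tracks plus ends, rose (0.42 ± 0.10, adjusted p = 0.00595, lost at 0.35). Apc fell there too (-0.33 ± 0.09, adjusted p = 0.0158), lost without circSlc45a4 knockdown replicate 1 or 2 or scramble replicate 1 (log2 fold change -0.31 to -0.27, adjusted p = 0.0525 to 0.0747) and with the Xist covariate at -0.18. Its direct difference (-0.33 ± 0.09, adjusted p = 0.0161) was lost without circSlc45a4 knockdown replicate 1 or 2 or Slc45a4 mRNA knockdown replicate 3 (log2 fold change -0.28 to -0.27, adjusted p = 0.0677 to 0.0856). Clip2, a relative of Clip1, fell after Slc45a4 mRNA knockdown (-0.49 ± 0.11, adjusted p = 0.0106), as did Map7d1 (-0.41 ± 0.10, adjusted p = 0.0168). Both calls were lost without scramble replicate 2 (log2 fold change -0.46, adjusted p = 0.0525 for Clip2 and log2 fold change -0.37, adjusted p = 0.0858 for Map7d1) and with the Xist covariate at -0.29 and -0.28. In the direct comparison Clip2 (0.56 ± 0.11, adjusted p = 0.00305) and Camsap1, a relative of Camsap2 (0.34 ± 0.08, adjusted p = 0.0103), were higher.

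Of 20 other kinesin genes, 4 rose and 3 fell after circSlc45a4 knockdown (20% and 15%, against 14.1% and 13.0% of all genes), 2 rose and 4 fell after Slc45a4 mRNA knockdown (10% and 20%, against 8.92% and 9.09%), and 6 were higher and 2 lower in the direct comparison (30% and 10%, against 13.8% and 12.3%). Their medians in the 3 comparisons were -0.15, -0.19 and 0.12. Kif3b, a subunit of kinesin-2, stood at 109.6, 100.3 and 103 CPM after circSlc45a4 knockdown and 52.7, 64.9 and 64.9 CPM after Slc45a4 mRNA knockdown, against 70.2, 63.1 and 56.96 CPM under scramble, with a log2 fold change of 0.72 ± 0.10 after circSlc45a4 knockdown (adjusted p = 0.000192) and 0.78 ± 0.10 in the direct comparison (adjusted p = 0.000146). Klc2, a kinesin light chain, fell after Slc45a4 mRNA knockdown (-0.86 ± 0.12, adjusted p = 0.000358) and after circSlc45a4 knockdown (-0.52 ± 0.12, adjusted p = 0.00573, lost with the Xist covariate at -0.40). Kif26b rose after circSlc45a4 knockdown (0.61 ± 0.14, adjusted p = 0.00661). Kif1c rose there too (0.32 ± 0.10, adjusted p = 0.0264), a call lost without circSlc45a4 knockdown replicate 1 or 2 or scramble replicate 1 or 2 (log2 fold change 0.28 to 0.32, adjusted p = 0.0593 to 0.0952), with upper-quartile factors, with no filter and with the Xist covariate at 0.38. Kif21a, the close relative of Kif21b, fell after Slc45a4 mRNA knockdown (-0.49 ± 0.08, adjusted p = 0.000826, lost with the Xist covariate at -0.38), and its direct difference was 0.57 ± 0.08 (adjusted p = 0.000195). The falls of Kif1b (-0.27 ± 0.08, adjusted p = 0.0266) and Kif3a (-0.29 ± 0.08, adjusted p = 0.0296) after Slc45a4 mRNA knockdown were lost without Slc45a4 mRNA knockdown replicate 1 or 2 or scramble replicate 1 or 2 (log2 fold change -0.27 to -0.21, adjusted p = 0.0575 to 0.111 for Kif1b and log2 fold change -0.32 to -0.22, adjusted p = 0.0595 to 0.123 for Kif3a), with a replicate block and with the Xist covariate at -0.15 and -0.20. In the direct comparison Kif13b was higher (0.49 ± 0.11, adjusted p = 0.00472) and Kif4, a kinesin of dividing cells, lower (-0.79 ± 0.17, adjusted p = 0.00519).

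Of 41 other genes of actin regulation, 9 rose and 3 fell after circSlc45a4 knockdown (22.0% and 7.3%, against 14.1% and 13.0% of all genes), 4 rose and 7 fell after Slc45a4 mRNA knockdown (9.8% and 17.1%, against 8.92% and 9.09%), and 14 were higher and 3 lower in the direct comparison (34.1% and 7.3%, against 13.8% and 12.3%). Their medians in the 3 comparisons were 0.12, -0.05 and 0.15. Cyfip2, a subunit of the WAVE complex that starts branched actin, stood at 319.6, 271 and 315 CPM after circSlc45a4 knockdown and 206, 247 and 263 CPM after Slc45a4 mRNA knockdown, against 114, 128 and 125 CPM under scramble. It rose in both, by 1.30 ± 0.10 and 0.96 ± 0.10 on the log2 scale (adjusted p = 2.4e-06 and 4.01e-05). Evl, which helps actin filaments grow, stood at 212, 203 and 208 CPM after circSlc45a4 knockdown and 99.1, 129 and 121 CPM after Slc45a4 mRNA knockdown, against 217, 217 and 223 CPM under scramble. Its level fell after Slc45a4 mRNA knockdown (-0.91 ± 0.09, adjusted p = 2.81e-05), and the direct difference was 0.84 ± 0.09 (adjusted p = 3.91e-05). Rhob, a small GTPase, had 0.75 ± 0.11 (adjusted p = 0.000196) and Basp1, a growth cone protein related in function to Gap43, -0.67 ± 0.09 (adjusted p = 0.000154) after circSlc45a4 knockdown. Coro1c, a coronin, rose in both (0.50 ± 0.10 and 0.68 ± 0.10, adjusted p = 0.00304 and 0.000654). Pak2, a kinase bound by Rac and Cdc42, fell after Slc45a4 mRNA knockdown (-0.55 ± 0.08, adjusted p = 0.000449, lost with the Xist covariate at -0.46). Ssh1, the phosphatase that activates cofilin (0.85 ± 0.10, adjusted p = 8.59e-05), Rhob (0.57 ± 0.10, adjusted p = 0.00165) and Actb, the gene of beta-actin (0.43 ± 0.09, adjusted p = 0.00303), were higher in the direct comparison.

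Of 24 genes of radial migration signalling, 7 rose and 2 fell after circSlc45a4 knockdown (29.2% and 8.3%, against 14.1% and 13.0% of all genes), 2 rose and 5 fell after Slc45a4 mRNA knockdown (8.3% and 20.8%, against 8.92% and 9.09%), and 9 were higher and 3 lower in the direct comparison (37.5% and 12.5%, against 13.8% and 12.3%). Their medians in the 3 comparisons were 0.02, -0.07 and 0.13. Fezf2, a transcription factor of deep-layer projection neurons, had the smallest p of the list in both knockdowns. It rose in both (0.65 ± 0.09 and 0.75 ± 0.09, adjusted p = 0.000236 and 0.000148), the first call lost with the Xist covariate at 0.45. Cdk5r2, the second activator of Cdk5, gave the lowest fold change of the list after circSlc45a4 knockdown (-1.64 ± 0.34, adjusted p = 0.00286, lost with the Xist covariate at -1.79). Crk, an adaptor of the reelin pathway, rose there (0.37 ± 0.07, adjusted p = 0.00169, lost with the Xist covariate at 0.35). Reln, the signal that Cajal-Retzius cells secrete, stood at 244, 137 and 70.2 CPM after circSlc45a4 knockdown and 21.1, 12.2 and 12.4 CPM after Slc45a4 mRNA knockdown, against 20.7, 26.4 and 53.9 CPM under scramble. The circSlc45a4 knockdown lay above both other groups, and its libraries spread widely. Its log2 fold change was 2.15 ± 0.41 after circSlc45a4 knockdown (adjusted p = 0.00182, lost with the Xist covariate at 1.73) and -1.16 after Slc45a4 mRNA knockdown (adjusted p = 0.0717). Vldlr, one of its receptors, rose after Slc45a4 mRNA knockdown (0.51 ± 0.08, adjusted p = 0.000733), and Crkl, an adaptor behind these receptors, fell there (-0.66 ± 0.10, adjusted p = 0.000579, lost with the Xist covariate at -0.47). In the direct comparison Reln gave 3.30 ± 0.43, Crkl 0.50 ± 0.10, Vldlr -0.41 ± 0.08 and Plxnb2, a plexin, 0.60 ± 0.12 (adjusted p = 0.000158, 0.00254, 0.00213 and 0.00260). Rap1b, a small GTPase, fell after Slc45a4 mRNA knockdown (-0.42 ± 0.10, adjusted p = 0.0120), lost without scramble replicate 1 (log2 fold change -0.32, adjusted p = 0.0511) and with the Xist covariate at -0.50.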

How the data were processed

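Raw read counts per gene, 1 column per library, were deposited by the authors for all 9 libraries. Per the submitters' processing notes, STAR 2.4.2a, bcl2fastq 2.17.1.14, DESeq2 and the mouse build mm10 were used, and what counted the reads, on which strand and with which annotation was not given in the sources used here. Of 53379 gene IDs, 53274 matched a GENCODE M21 symbol. The members and lists were chosen with earlier results of these data known. Counts were fitted with edgeR 4.0.16 in R 4.3.3 (filterByExpr with a minimum count of 10, TMM factors, quasi-likelihood F test, 9 libraries, 6 residual degrees of freedom), and p-values were adjusted by Benjamini-Hochberg over 17760 genes at 0.05. The common biological coefficient of variation was 13.9%. Standard errors were taken from the fold change and its F value. CPM used TMM-scaled totals, and CPM per kilobase merged exon lengths. The alternatives were RLE and upper-quartile factors, no filter, 1 CPM in 3 libraries, DESeq2 1.42.0, limma-voom (limma 3.58.1), the 6 libraries compared, a replicate block, the log2 level of Xist as a covariate, a minimum change of 1.2-fold, and each library left out. On simulated counts with 200 changed genes of 17760, the test recovered 43, 47 and 47% of 1.5-fold and 69, 67 and 73% of 2-fold changes for the circSlc45a4 knockdown against scramble, the Slc45a4 mRNA knockdown against scramble and the direct comparison, with 0, 6 and 6 unchanged genes called. In the data 27.1, 18.0 and 26.1% of all genes were called in these comparisons. The simulation changed far fewer genes, so its rates do not give the recovery in the data. Genes were named if called in any comparison, with per-library values where groups did not overlap, largest changes of each class first, and for other pathway lists up to 4 genes with the smallest p per comparison among those called at an average log2 CPM of at least 1. Intervals of count ratios are exact and cover counting error only.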

Additional observations from a re-analysis of the deposited data

How the results depend on the processing

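Of 58 called results of the 46 genes (a gene in a comparison), 18 were called under each of 19 alternatives, 34 under all but the Xist covariate and a minimum change of 1.2-fold, and none reversed. Of the 80 results that were not called, 26 were called under at least 1 alternative. Among the uncalled results there were 43 changes of sign, counted once for each result and alternative. With the Xist covariate, 29 calls were lost, at a median of 87.3% of the fold change and 153% of the standard error without it: the circSlc45a4 knockdown against scramble gave 4 higher and 4 lower genes, and the Slc45a4 mRNA knockdown against scramble 1 and 1. Over all genes this fit called 773 higher and 392 lower, and 434 and 269, against 2509 and 2305, and 1585 and 1615, without it. A test for a minimum change of 1.2-fold gave 2 higher and 5 lower genes in the Slc45a4 mRNA knockdown, and 8 higher and 2 lower in the direct comparison. With only the 6 libraries compared, 11 were higher in the circSlc45a4 knockdown against scramble and 3 lower in the direct comparison. Leaving out 1 library each gave 6 to 12 higher and 7 to 12 lower genes in the circSlc45a4 knockdown, 2 to 5 higher and 9 to 21 lower in the Slc45a4 mRNA knockdown, and 10 to 19 higher and 2 to 6 lower in the direct comparison. The cause of these changes was not tested, and the last 2 settings also used fewer libraries. Nefh has no value with the 1 CPM filter, and none in the direct comparison with 6 libraries. A replicate block gave 6 higher and 8 lower, 3 and 14, and 14 and 4 calls in the 3 comparisons. Same-numbered libraries correlated at -0.195 to 0.178 in their deviations from the group means over 9 pairs, 2 of them over 0.1, and 3 of 9 libraries correlated best with their own number, so the numbers were not taken to pair samples. Nefh, at 1 to 37 counts per library, is the member that depth limits most.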
